A study of Mus musculus with 18 samples.

Results

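The proteasome subunit genes are the genes named *Psma*, *Psmb*, *Psmc* or *Psmd* followed by a digit, with pseudogene names left out. The rule took 40 of the 23420 genes in each deposited table, 19 with *Psma* or *Psmb* names (20S core) and 21 with *Psmc* or *Psmd* names (19S cap). RNA-Seq was carried out on whole embryonic mouse lungs in 3 experiments of 6 libraries each, with 3 control and 3 mutant libraries per experiment. The study asked how noncanonical Wnt signaling shapes lung branching. In the first experiment, at E12.5, control lungs were Vangl1-/- and mutant lungs were Vangl1-/-; Vangl2-/-, so both groups lacked *Vangl1*. In the second, also at E12.5, Wnt5af/+; Dermo1Cre lungs served as controls for Wnt5af/f; Dermo1Cre lungs, in which the Cre driver acts in the mesenchyme. In the third, at E13.5, Wnt5af/+; Sox9Cre controls were compared with Wnt5af/f; Sox9Cre mutants, in which the Cre driver acts in the epithelium. Every *Wnt5a* control therefore carried 1 floxed allele and Cre. How many embryos went into a library is not stated in the sources used here, so p-values measure the spread between these libraries, which may be technical.

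The proteasome is the protease complex that degrades most short-lived and misfolded proteins of a cell after they have been tagged with ubiquitin. Its barrel-shaped core stacks outer rings of α subunits (*Psma* genes) on inner rings of β subunits (*Psmb* genes), and some of the β subunits hold the active sites. The cap binds ubiquitin chains (base and lid subunits), removes them, unfolds the substrate with a ring of ATPases (*Psmc* genes) and feeds it into the core. Because subunits are needed in fixed ratios, their genes are known to be regulated together, in part by the transcription factor NFE2L1 acting through antioxidant response elements.

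The members fall into the following roles. The α ring is encoded by *Psma1* to *Psma7*, and *Psma8* encodes an α subunit of the testis. The β subunits without an active site come from *Psmb1* to *Psmb4*, and the active sites come from *Psmb6* (caspase-like), *Psmb7* (trypsin-like) and *Psmb5* (chymotrypsin-like). *Psmb8*, *Psmb9* and *Psmb10* encode the interferon-inducible active-site subunits of the immunoproteasome, and *Psmb11* the active-site subunit of the thymoproteasome of cortical thymic epithelium. In the cap, *Psmc1* to *Psmc6* encode the ATPase ring, *Psmd1*, *Psmd2* and *Psmd4* the rest of the base, and *Psmd3*, *Psmd6*, *Psmd7*, *Psmd8*, *Psmd11*, *Psmd12*, *Psmd13* and *Psmd14* the lid. *Psmd5*, *Psmd9* and *Psmd10* encode chaperones of cap assembly that are not part of the finished complex. *Psmc3ip* was taken in by its name only, since it encodes a meiotic recombination factor. The constitutive subunits are the 31 that remain without *Psma8*, *Psmb8* to *Psmb11*, the 3 chaperones and *Psmc3ip* (14 core, 17 cap).

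Promoter sequences of RefSeq (GRCm38.p6, 250 bases before to 50 after the start) were matched to 33 of the 40 members, with 35 promoters. The core of the antioxidant response element was searched as TGACNNNGC on both strands. It was found in 5 of the 35 promoters (14.3%), those of *Psmb5*, *Psmb6*, *Psmd9*, *Psmc6* and *Psmd12*, against 12.4% of all 32851 promoters. The 3 matches on the coding strand, which lie nearest to the start, are shown because those of *Psmb5* and *Psmb6* belong to active-site subunits, with the match in capitals and 10 bases on either side.
Psmb5, chr14:54618024-54618052, minus strand, match from base -47: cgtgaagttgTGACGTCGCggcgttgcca
Psmb6, chr11:70525338-70525366, plus strand, match from base -9: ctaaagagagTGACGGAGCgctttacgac
Psmd9, chr5:123228149-123228177, plus strand, match from base -31: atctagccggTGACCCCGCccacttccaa
The CCAAT box, searched as CCAAT on both strands, was in 14 of the 35 promoters (40%) and in 37.4% of all promoters. For both motifs the share among the members was near that of all promoters, and a match is a description of the sequence and no measure of binding.

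Values are normalized counts, which are gene counts divided by a size factor of the library, and a log2 fold change is mutant over control on the log2(value + 1) scale. Between 15945393 and 19814346 reads per library lay on genes, and the summed members took 0.511 to 0.754% of the normalized counts. *Vangl2* ranged from 79.8 to 89.6 normalized counts in the mutant and from 277 to 406 in the control libraries of its experiment. *Vangl1*, which both groups of that experiment lack by label, still had 113 to 219 normalized counts in its controls and 239 to 274 in its mutants. The study describes its *Vangl1* allele as gene-trapped, and the source of these reads was not tested. *Wnt5a*, measured in the whole lung, overlapped between groups in the *Dermo1Cre* (230 to 436 against 430 to 489) and *Sox9Cre* (362 to 448 against 426 to 473) experiments. All 10 epithelial and all 10 lung mesenchyme markers listed for the tissue check were detected in each table. Summed cardiomyocyte markers were 1190.5, 6413 and 19714 in the *Dermo1Cre* controls and 2731, 3912 and 712 in their mutants. They were 4992, 8192 and 17877.5 against 5433, 2648 and 825 in the *Sox9Cre* experiment. In the *Vangl1/2* experiment they were 1755, 1478 and 5210 against 433, 7410 and 1482. The part of cardiomyocytes in the results was not tested. Control replicate 2 of the *Vangl1/2* experiment stood apart: its counts differed from those of the other controls by 49.4 and 74.2 chi-square units per gene, against 3.72 to 15.8 for the other replicate pairs of the series. The medians, the counts of members called and the fold changes of 6 leading members of that experiment are given with and without it. Control replicate 3 of the *Dermo1Cre* and control replicate 1 of the *Sox9Cre* experiment held thymus transcripts, whose values stand beside those of *Psmb11*.

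In control lungs levels were set per kb of transcript to compare the members with each other. *Psmb6* was the highest of the 31 in every experiment, at 5586 normalized counts per kb of transcript in the *Vangl1/2* controls, 3338 in the *Dermo1Cre* controls and 3366 in the *Sox9Cre* controls. *Psmd11*, a lid subunit, was the lowest of the 31 in every experiment, at 766, 639.8 and 616 per kb in the same order. The tissue-restricted and inducible members were below this range: *Psmb10* stood at 143, 114 and 108 per kb, *Psmb8* at 10.53, 12.46 and 20.8, *Psmb9* at 7.47, 9.10 and 7.35, *Psma8* at 7.63, 5.31 and 8.03, and *Psmb11*, the lowest, at 0.229, 1.87 and 1.40. These levels rest on the principal annotated transcript of each gene, and since the tables were normalized separately they are not compared between experiments. The *Psmb11* levels of the *Dermo1Cre* and *Sox9Cre* controls rest mostly on 1 library each, at 22.8 and 16.8 normalized counts. *Psmb8* was also highest in those libraries.

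In *Vangl1/2* mutant lungs, 36 of the 38 members tested had log2 fold changes below 0, where 51.2% of all 14303 genes tested did, 2 were above 0, where 48.8% did, and the median was -0.32 against -0.01 over all genes. At an unadjusted p under 0.05, 10 members were lower and 0 were higher, where 8.56% of all genes were lower and 12% higher. By edgeR and by DESeq2 17 members were lower, where 10.9% and 10.1% of all genes were. The 10 were the α subunits *Psma2*, *Psma3*, *Psma5* and *Psma6*, the β subunits *Psmb3*, *Psmb4*, *Psmb5* and *Psmb7*, and in the cap *Psmd4*, a ubiquitin receptor, and *Psmd13*, a lid subunit. After adjustment over all genes 0 members passed a threshold of 0.05 in limma, with 0.233 as the smallest adjusted p, and 0.00699% of all genes did. In bulk RNA, fewer cells of a type and less RNA per cell cannot be told apart.

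**Figure D1:**
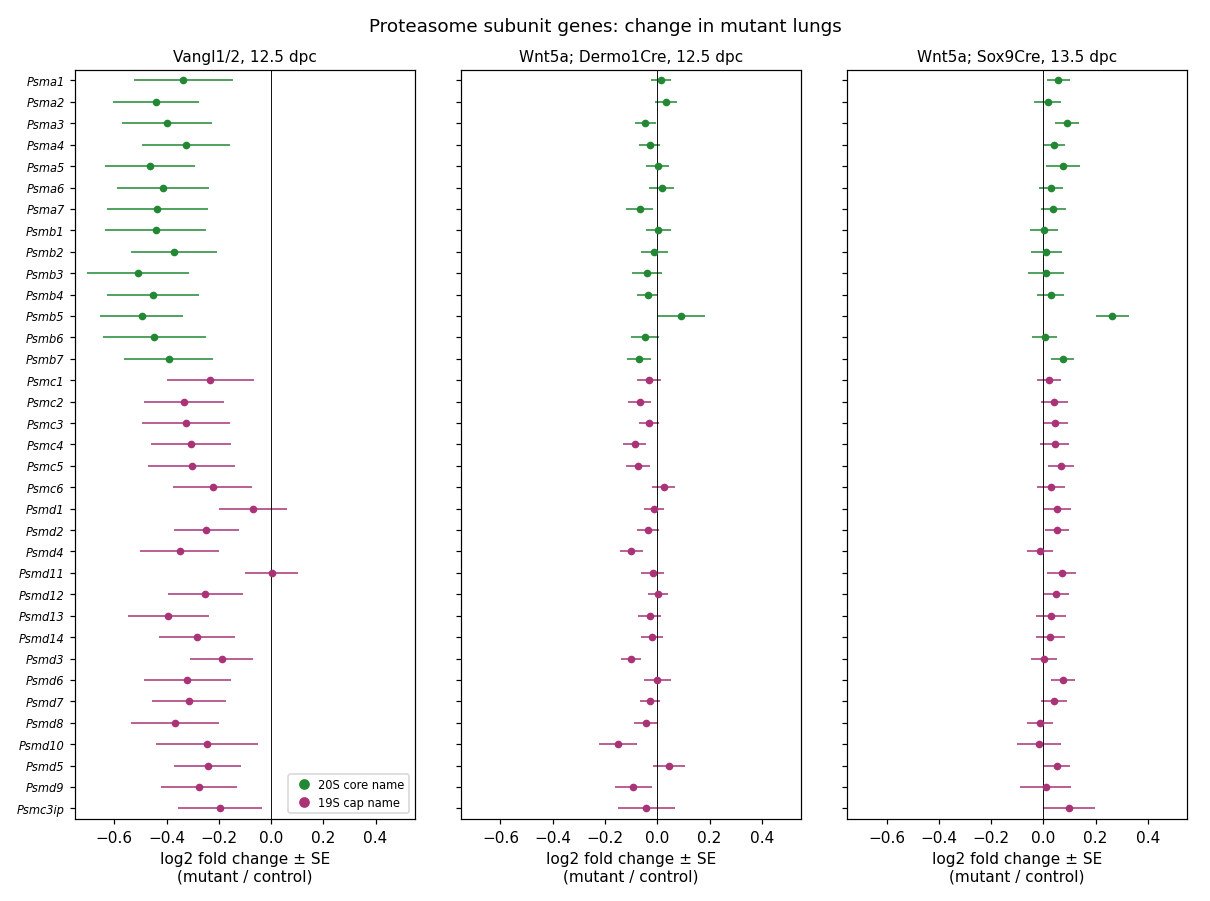
Log2 fold change (mutant over control) with its standard error for 35 members in the 3 experiments, with 20S core names in green and 19S cap names in purple. The tissue-restricted and inducible genes *Psma8* and *Psmb8* to *Psmb11* are not drawn. In the *Vangl1/2* experiment the core subunits drawn lie between -0.51 and -0.33 and the cap subunits mostly nearer to 0, while in the *Sox9Cre* experiment *Psmb5* stands at 0.26.

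The active-site subunit *Psmb5* had the smallest p of the members. It stood at 1906, 1340.1 and 1678 normalized counts in control replicates 1 to 3 and at 1344, 1154 and 986 in the mutants. The means were 1641 ± 285 and 1161 ± 179 (SD, n = 3), a log2 fold change of -0.50 ± 0.16 (SE; adjusted p = 0.233, limma). Control replicate 2 lay just below mutant replicate 1, so the groups overlapped. *Psmb5* has an annotated pseudogene 98.9% identical to it over 796 bases, as have *Psma3* (identical over 665 bases) and *Psma5* (98.6% over 952 bases), so reads of these 3 genes could be shared with a copy.

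*Psma5*, of the α ring, had 3167, 2289 and 3799 normalized counts in controls and 2325, 2166 and 2085 in mutants. The log2 fold change was -0.46 ± 0.17 (SE; adjusted p = 0.233, limma). *Psma2*, also of the α ring, had 4085, 2978 and 4750.1 in controls and 2931, 2983 and 2649.9 in mutants, a log2 fold change of -0.44 ± 0.16 (adjusted p = 0.233, limma). For both genes the controls other than replicate 2 lay above all mutants, and replicate 2 lay among them.

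In the other active-site subunits, control replicates 1 and 3 lay above all mutants, as for *Psma5* and *Psma2*. *Psmb6* had 4884, 3104 and 5384 normalized counts in controls and 3462, 3225 and 2883 in mutants (log2 fold change -0.45 ± 0.20, adjusted p = 0.246, limma). *Psmb7* had 4304, 3141 and 5192 in controls and 3125, 3234 and 3071 in mutants (-0.39 ± 0.17, adjusted p = 0.242, limma). Control replicate 2 was again within or next to the mutant range.

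*Psmd13* was the single member whose groups did not overlap, where 8.68% of all genes had all mutants below all controls and 13.6% all mutants above. It is named here because its values were seen, with 3034, 2215 and 3453 normalized counts in controls and 2178, 2194 and 2141 in mutants. Only 2 tested members were above 0, the low-count *Psmb8* and *Psmd11*. *Psmd11* had 2181, 1947 and 2420.3 in controls and 2165, 2184 and 2183 in mutants, a log2 fold change of 0.00 ± 0.10. *Psmd1*, the large scaffold subunit of the base, had -0.07 ± 0.13. Both were chosen after their values were seen, as the constitutive subunits nearest to 0.

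By role, all 7 α subunits were below 0, between -0.46 and -0.33, with 4 lower at an unadjusted p under 0.05. All 4 β subunits without an active site were below 0, between -0.51 and -0.37, with 2 lower. All 3 active-site subunits were below 0, with 2 lower. In the cap, the 6 ATPases lay between -0.33 and -0.22 with 0 lower at that threshold, the 3 non-ATPase base subunits between -0.35 and -0.07 with 1 lower, and the 8 lid subunits between -0.39 and 0.00 with 1 lower. The 3 chaperones lay between -0.28 and -0.24, and *Psmc3ip* at -0.20, with no unadjusted p under 0.05 among them.

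The core stood below the cap in this experiment. Tested core members had a median log2 fold change of -0.41 (17 genes, 8 lower at an unadjusted p under 0.05) and tested cap members of -0.28 (21 genes, 2 lower). For the constitutive subunits alone the medians were -0.44 (14 genes) and -0.30 (17 genes). The summed core divided by the summed cap was 0.712, 0.650 and 0.732 in control replicates 1 to 3 and 0.625, 0.654 and 0.600 in the mutants. The ratio was highest in control replicates 1 and 3, and control replicate 2 lay just below mutant replicate 2. No test of the ratio was made, since the members were chosen as a list.

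The summed members were 135019, 98618 and 152674 normalized counts in the controls and 106748, 100499 and 97207 in the mutants, so control replicate 2 lay within the mutant range. In that library all 31 constitutive subunits were below their control mean, with a median deviation of -0.38 on the log2 scale, against -0.27, -0.36 and -0.41 in the mutants. Without control replicate 2, 33 of the 38 members were lower at an adjusted p under 0.05 (limma), where 21.7% of all genes were. In either direction 43.2% of all genes passed in that fit, which did not remove the length trend. The median log2 fold change was then -0.51 for the members, -0.62 for the core and -0.44 for the cap. The log2 fold changes were then -0.69 for *Psmb6*, -0.66 for *Psma5*, -0.63 for *Psmb5* and for *Psma2*, -0.59 for *Psmb7* and -0.58 for *Psmd13*. Leaving out control replicate 3 in its place gave medians of -0.19 (members), -0.24 (core) and -0.15 (cap). The number lower at an unadjusted p under 0.05 was 0 without control replicate 1 (1.62% of all genes) and without mutant replicate 3 (2.48%). It was 1 without control replicate 3 (2.09% of all genes) and without mutant replicate 2 (4.28%), and 2 without mutant replicate 1 (3.68%).

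**Figure D2:**
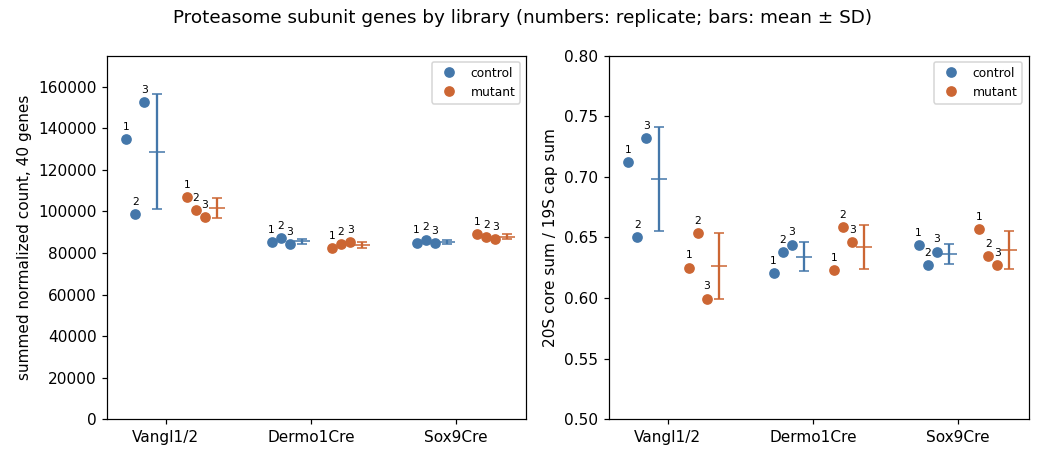
Left, summed normalized counts of the 40 members in each library, and right, the summed 20S core divided by the summed 19S cap, with replicate numbers beside the points and mean ± SD (n = 3) at the side of each group. Control replicate 2 of the *Vangl1/2* experiment (98618) lies with the mutants, and the groups of the other experiments lie close together.

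Transcript length and some cell type markers varied along with the members in the *Vangl1/2* libraries. The summed erythroid markers (7 of 10 in the table, with the globins *Hba-a1* and *Hba-a2* at 0 in all libraries) were 58366.5, 34053 and 52331 in the controls and 45428.5, 40474 and 32014 in the mutants. The summed lung mesenchyme markers (10 of 10) were 61153, 102006 and 47017 in the controls and 75566, 95658 and 85333 in the mutants. In both, control replicate 2 lay apart from the other controls on the side of the mutants. The mesenchyme markers ran opposite in direction to the members. Control replicate 2 also lay on the side of the mutants for the summed epithelial, endothelial, mesothelial, macrophage, thymus, and neuron and glia markers. For the endothelium the sums were 10487, 12108 and 9848 in the controls and 11552, 11817 and 12532 in the mutants. Cardiomyocyte markers, given above, ranged widely in both groups. The proliferation and smooth muscle lists did not place that library with the mutants. Summed proliferation markers were 58332, 55591 and 60257 in the controls and 63522, 60093 and 60234 in the mutants. Summed smooth muscle markers were 8279, 10883 and 12229.5 in the controls and 6459, 6745 and 9615 in the mutants. The part of cell composition in the result was not tested.

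Shorter transcripts had lower log2 fold changes in this experiment, with a Spearman correlation of 0.701 across 13437 genes and 0.529 across the 38 members. It is given as a description, since genes of a library share its depth and are not independent. The tested members are short, with a median transcript of 1540.5 bases against 3041 over all genes, and the core (1183) is shorter than the cap (1636). When a smooth trend on length was removed from each library, the members' median was -0.07, with a core of -0.07 and a cap of -0.06, and with 32 of 38 below 0. That core value includes the lower-count *Psma8*, *Psmb8* and *Psmb10*, at 0.20, 0.47 and 0.17. The constitutive core subunits lay between -0.41 (*Psma2*) and -0.0009 (*Psmb2*), all below 0. The constitutive cap subunits lay between -0.24 (*Psmd13*) and 0.04 (*Psmd11*). Then 3 members were lower at an unadjusted p under 0.05, where 3.83% of all genes were: *Psma2* (-0.41), *Psma3* (-0.36) and *Psmd5* (-0.37), with adjusted p from 0.548 to 0.562 (limma). *Psmb5* then stood at -0.13 (adjusted p = 0.734, limma). The length used is that of the principal annotated transcript, which is long for *Psma2*, *Psma3* and *Psmd5* (2911, 2846 and 4397 bases).

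**Figure D3:**
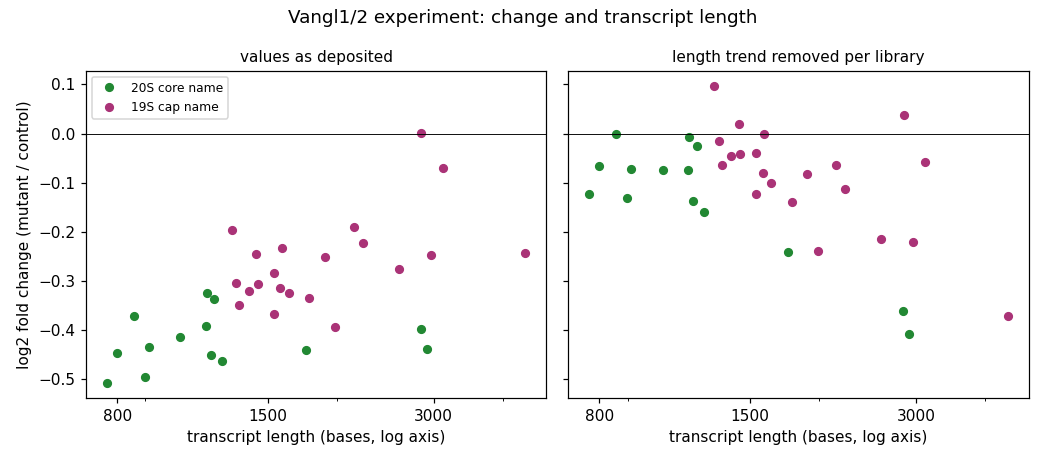
Log2 fold change in the *Vangl1/2* experiment against transcript length (log axis) for 35 members, before (left) and after (right) a length trend was removed from each library. The short core transcripts (green) lie lowest on the left. On the right the core genes drawn lie between -0.41 (*Psma2*) and -0.0009 (*Psmb2*).

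In *Dermo1Cre* mutant lungs the members differed little from controls. The median log2 fold change was -0.03 over 39 members tested, against 0.00 over all 14277 genes, with -0.02 for the core and -0.03 for the cap. Leaving out 1 library gave -0.04 (without mutant replicate 2) to 0.01 (without mutant replicate 1) for the core and -0.06 (without mutant replicate 3) to -0.02 (without mutant replicate 1) for the cap. Below 0 were 27 members, where 49.7% of all genes were, and above 0 were 12, where 50.3% were. Fold changes rose with transcript length here too, with a Spearman correlation of 0.237 across 13422 genes. With the length trend removed, 16 members were below 0, and the median over all genes was -0.001. At an unadjusted p under 0.05, 2 members were lower and 0 higher, where 4.76% of all genes were lower and 5.42% higher. After adjustment 0 members passed, where 0.014% of all genes did (limma), and edgeR gave 0 as well. The groups did not overlap for 3 members, all cap names and all lower in mutants, where 7.92% of all genes were lower and 7.65% higher without overlap.

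*Psmd3*, a lid subunit, had 3408, 3464 and 3444 normalized counts in controls and 3092, 3288 and 3248 in mutants (log2 fold change -0.10 ± 0.04, adjusted p = 0.449, limma). *Psmd4*, the ubiquitin receptor, had 1931, 2024 and 1915 in controls and 1766, 1871 and 1840.4 in mutants (-0.10 ± 0.04, adjusted p = 0.490, limma). The assembly chaperone *Psmd10* had 382, 362 and 376 in controls and 319, 358 and 333 in mutants (-0.15 ± 0.07, adjusted p = 0.520, limma). In each of the 3 genes all mutants lay below all controls. With the length trend removed, *Psmd3* stood at -0.08, *Psmd4* at -0.04 and *Psmd10* at -0.10.

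The active-site subunits overlapped between groups. *Psmb5* had 1031, 1298 and 1244 normalized counts in controls and 1142, 1338 and 1317 in mutants (log2 fold change 0.09 ± 0.09, adjusted p = 0.753, limma). *Psmb6* had 2675, 2672 and 2645 in controls and 2369.7, 2666 and 2712 in mutants (-0.05 ± 0.05). *Psmb7* had 2712, 2896 and 2796 in controls and 2613, 2801 and 2589 in mutants (-0.07 ± 0.05). The summed core divided by the summed cap was 0.621, 0.638 and 0.644 in controls and 0.623, 0.659 and 0.646 in mutants, and these ranges overlapped as well.

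In *Sox9Cre* mutant lungs 34 of the 39 members tested had log2 fold changes above 0, where 50.7% of all 14293 genes did, and 5 below 0, where 49.3% did. The median was 0.04 for the members and 0.00 over all genes. The number below 0 was 12 without mutant replicate 1, 11 without control replicate 3, 9 without mutant replicate 2 and 3 without mutant replicate 3, and the median was 0.02 without mutant replicate 1. In limma 1 member was higher at an unadjusted p under 0.05 and 0 were lower, where 1.08% of all genes were higher and 2.81% lower. After adjustment 0 members passed, and 0% of all genes did in limma and in edgeR, while DESeq2 called 9 genes and no member. The groups did not overlap for 7 members, all higher in mutants, where 4.42% of all genes were higher and 4.36% lower without overlap. These were *Psma1*, *Psma3*, *Psma4*, *Psmb5* and *Psmb7* of the core and the lid subunits *Psmd6* and *Psmd12*.

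*Psmb5* was the member with p under 0.05. It had 1033, 1176 and 1148 normalized counts in controls and 1369, 1357 and 1299.8 in mutants, with means of 1119 ± 75.9 and 1342 ± 37.0 (SD, n = 3). All mutants lay above all controls. The log2 fold change was 0.26 ± 0.06 (SE; adjusted p = 0.9999, limma), and it lay between 0.21 and 0.30 when any library was left out. The other active-site subunits were nearer to 0. *Psmb7* had 2697, 2778 and 2703 in controls and 2922, 2857 and 2829 in mutants (0.07 ± 0.04, adjusted p = 0.9999, limma), and *Psmb6* had 2584, 2779.8 and 2693 in controls and 2755, 2651 and 2675 in mutants (0.00 ± 0.05). Whether the change of *Psmb5* differed between the 3 experiments was not tested.

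**Figure D4:**
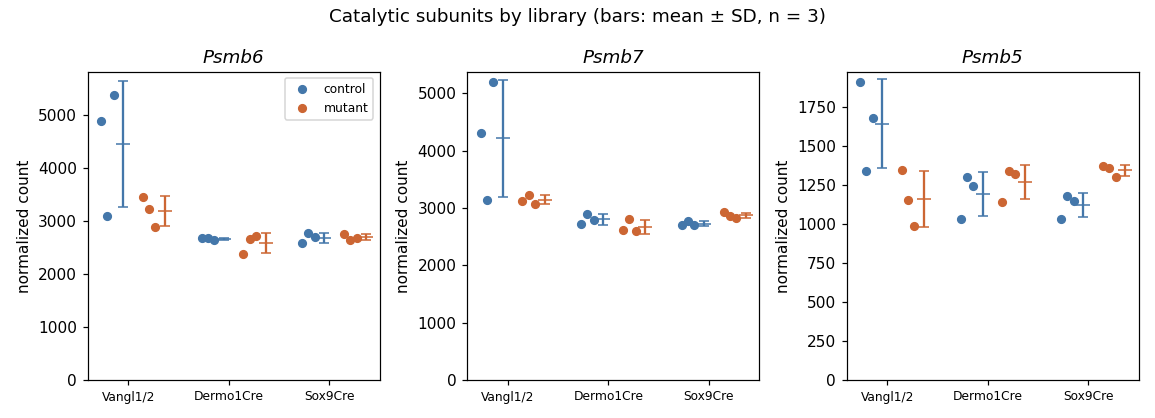
Normalized counts of the active-site subunits *Psmb6*, *Psmb7* and *Psmb5* in each library, with mean ± SD (n = 3) beside each group. *Psmb5* mutants (1299.8 to 1369) lie above all controls in the *Sox9Cre* experiment, while in the *Vangl1/2* experiment control replicate 2 lies near the mutants for all 3 genes.

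The members with the next smallest p in this experiment were *Psma3* and *Psma8*. *Psma3*, of the α ring, had 2379, 2329.8 and 2401 normalized counts in controls and 2555, 2462 and 2555 in mutants (log2 fold change 0.09 ± 0.05, adjusted p = 0.9999, limma). The testis subunit *Psma8* had 14.9, 9.96 and 16.0 in controls and 7.81, 7.04 and 10.3 in mutants (-0.63 ± 0.36, adjusted p = 0.9999, limma), with overlapping groups at a level near the filter. The summed core divided by the summed cap was 0.644, 0.627 and 0.638 in controls and 0.657, 0.635 and 0.627 in mutants, and the ranges overlapped.

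*Psmb5*, *Psmb11*, *Psmc6* and *Psmd6* lie on chromosome 14, as does *Wnt5a* (chr14:28504750-28527448, plus strand, GENCODE M21, GRCm38). *Psmb5* (chr14:54614119-54618022, minus strand) and *Psmb11* (chr14:54621433-54629556, plus strand) are neighbors. The log2 fold changes in the *Sox9Cre* experiment were 0.26 for *Psmb5*, 0.08 for *Psmd6* and 0.03 for *Psmc6*, and in the *Dermo1Cre* experiment 0.09, 0.00 and 0.02 in the same order. The positions are given as a description.

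The immunoproteasome genes were low in all libraries. *Psmb8* ranged from 13.8 to 26.2 normalized counts in the *Vangl1/2* experiment, from 15.1 to 27.7 in the *Dermo1Cre* experiment and from 23.1 to 46.6 in the *Sox9Cre* experiment. Its controls had 20.7, 14.0 and 16.8 against 26.2, 22.7 and 13.8 in *Vangl1/2* mutants, 18.04, 15.1 and 27.7 against 17.1, 21.8 and 21.0 in *Dermo1Cre* mutants, and 46.6, 28.9 and 25.9 against 27.3, 23.1 and 28.7 in *Sox9Cre* mutants. The groups overlapped each time.

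*Psmb9* failed the filter in the *Vangl1/2* experiment, with 15.5, 7.46 and 7.36 normalized counts in controls and 8.05, 10.8 and 5.91 in mutants. It had 10.02, 12.04 and 14.9 against 5.04, 3.97 and 13.0 in the *Dermo1Cre* experiment, a log2 fold change of -0.81 ± 0.47 (SE; adjusted p = 0.574, limma), and 15.9, 7.97 and 5.99 against 12.7, 10.1 and 14.4 in the *Sox9Cre* experiment (0.38 ± 0.42). Leaving out 1 library moved *Psmb9* to between -1.26 (without mutant replicate 3) and -0.52 (without mutant replicate 2) in the *Dermo1Cre* experiment, and to between 0.11 (without control replicate 3) and 0.74 (without control replicate 1) in the *Sox9Cre* experiment. *Psmb10*, the most abundant of the 3, had 230.3, 128 and 204 in *Vangl1/2* controls against 187, 190.2 and 129.99 in mutants. It had 133, 158 and 156 against 114, 149.9 and 129 in the *Dermo1Cre* experiment, and 134, 151 and 141 against 155, 145 and 155 in the *Sox9Cre* experiment. For these 3 genes the groups overlapped in each experiment.

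*Psmb11* failed the filter in every experiment. It passed 10 normalized counts in 1 library of the *Dermo1Cre* and 1 of the *Sox9Cre* experiment, and in 0 of the *Vangl1/2* experiment. It had 0, 1.004 and 22.8 normalized counts in *Dermo1Cre* controls and 2.02, 0.992 and 0.999 in their mutants. It had 16.8, 0.996 and 0 in *Sox9Cre* controls and 2.93, 2.01 and 1.03 in their mutants, and from 0 to 2.96 in the *Vangl1/2* experiment. The libraries with *Psmb11* were control replicate 3 of *Dermo1Cre* and control replicate 1 of *Sox9Cre*.

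The sum of a list of 9 genes drawn up for thymic tissue, chosen after the *Psmb11* values were seen, was highest in the same libraries within their experiments. Not every gene of the list is particular to the thymus. *Foxn1*, the master regulator of thymic epithelium, had 21.8 and 32.7 normalized counts in those libraries and at most 1.05 in the other 16. *Prss16*, a protease of cortical thymic epithelium, had 97.1 and 91.2 there and 8.86 to 47.5 elsewhere. *Rag1*, of immature lymphocytes, had 24.8 and 14.9 there and 0 to 3.97 elsewhere. Of the others, *Cd3e*, *Gcm2* and *Ptcra* had at most 4.96 in any library. *Lck* had 116 and 133 there, below the 172 and 170 of *Vangl1/2* control replicates 1 and 3. The summed list was 368.6 in the *Dermo1Cre* library and 172.6 to 189.4 in the other 5, and 375.6 in the *Sox9Cre* library and 178 to 201.1 in the other 5, while it was 177.3 to 283.7 in the *Vangl1/2* libraries. The highest *Psmb8* values of both experiments (27.7 and 46.6) were in the same libraries, and without control replicate 1 the log2 fold change of *Psmb8* in the *Sox9Cre* experiment was -0.06, against -0.31 with it. In the *Dermo1Cre* experiment the value of *Psmb8* was 0.26 without control replicate 3 and 0.02 with it, and -0.16 without control replicate 2. The part of thymic tissue in these values was not tested.

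**Figure D5:**
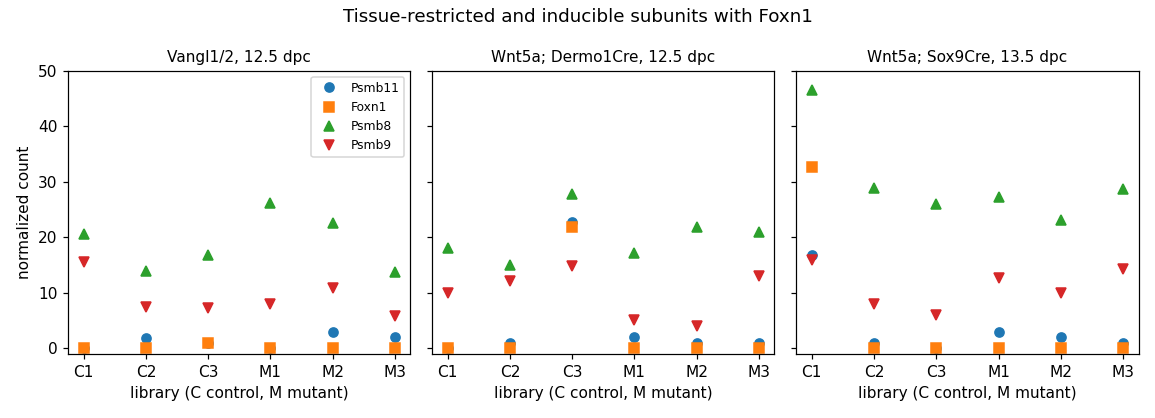
Normalized counts of *Psmb11*, *Psmb8*, *Psmb9* and the thymic gene *Foxn1* in each library (C1 to C3 controls, M1 to M3 mutants). *Psmb11* (22.8 and 16.8) and *Foxn1* (21.8 and 32.7) are raised together in control 3 of the *Dermo1Cre* and control 1 of the *Sox9Cre* experiment.

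Genes that serve the proteasome but lie outside the naming rule were followed in 39 genes of 8 lists. In the *Vangl1/2* experiment 8 of them were lower and 4 higher at an unadjusted p under 0.05, where 8.56% of all genes were lower and 12% higher. In the *Dermo1Cre* experiment 3 were lower and 1 higher, where 4.76% of all genes were lower and 5.42% higher. In the *Sox9Cre* experiment 0 passed in either direction, where 2.81% of all genes were lower and 1.08% higher. For the *Vangl1/2* experiment, 1 of 2 further cap genes, 2 of 4 activators, 2 of 7 assembly factors and 3 of 6 ubiquitin genes were lower. In the same experiment 2 of 7 regulators, 1 of 7 assembly factors, 1 of 6 shuttle factors and 1 of 6 ubiquitin genes were higher, with *Ddi2* counted under both regulators and shuttle factors. After adjustment 0 of the 39 passed in any experiment (limma). Of 13 interferon and antigen presentation genes, 9 were tested, of which 0 passed an unadjusted p of 0.05 in the *Vangl1/2* experiment, 1 was lower in the *Dermo1Cre* experiment, and 1 was higher and 1 lower in the *Sox9Cre* experiment, beside the same shares of all genes.

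*Pomp*, the chaperone that completes the core, had 3211, 2285 and 3448 normalized counts in *Vangl1/2* controls and 2191, 1989 and 1864 in mutants, with no overlap (log2 fold change -0.55 ± 0.16, adjusted p = 0.233, limma). With the length trend removed it stood at -0.31 (adjusted p = 0.548, limma). In the *Dermo1Cre* experiment it had 1909.96, 1975 and 1877 in controls and 1746, 1807 and 1775 in mutants, again with no overlap (-0.11 ± 0.04, adjusted p = 0.427, limma). It stood at -0.07 there with the length trend removed. In the *Sox9Cre* experiment it stood at 0.05 ± 0.06.

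*Nfe2l1*, which encodes the transcription factor that activates proteasome genes, had 2784, 3321 and 2380.3 normalized counts in *Vangl1/2* controls and 3567, 3495 and 3407 in mutants. All mutants lay above all controls (log2 fold change 0.32 ± 0.13, adjusted p = 0.235, limma), opposite in sign to most subunits. With the length trend removed it stood at 0.16 (adjusted p = 0.614, limma). It stood at -0.04 in the *Dermo1Cre* and at -0.01 in the *Sox9Cre* experiment.

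*Psme1* and *Psme2*, which encode the interferon-inducible activator of the core, stood at -0.32 ± 0.14 and -0.56 ± 0.21 on the log2 scale in the *Vangl1/2* experiment. *Adrm1*, a ubiquitin receptor of the cap, stood at -0.28 ± 0.14, and *Ubb*, a polyubiquitin gene, at -0.42 ± 0.17. Of these 4, all but *Adrm1* had an unadjusted p under 0.05, and the adjusted p lay between 0.233 and 0.281 (limma). With the length trend removed, *Psme1* stood at 0.01, *Psme2* at -0.21, *Adrm1* at -0.04 and *Ubb* at -0.17. None of the 4 then had an unadjusted p under 0.05, and the adjusted p lay between 0.614 and 0.976 (limma). In the *Dermo1Cre* and *Sox9Cre* experiments all 4 lay between -0.09 and 0.03.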

How the data were processed

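The authors deposited, per experiment, a table of 23420 genes by symbol with a signal for each library, gene counts divided by a size factor, and columns of their own log2 fold changes and p-values, which were not used. The submitters' processing notes name Trim Galore, HISAT2, featureCounts, DESeq2 and mm10, with no versions. Whole reads were recovered from all 18 libraries (largest deviation from a whole read 4.6e-05). Columns of per-library values left out: 0.

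Within each table, log2(value + 1) was fitted with limma 3.58.1 (R 4.3.3, mean-variance trend, no covariates). A gene entered the fit when 3 or more of its 6 libraries reached 10 normalized counts. Benjamini-Hochberg adjustment ran over every gene in the fit, with a threshold of 0.05. The scripts were tested on simulated data. For a single gene an exact permutation test of 3 against 3 libraries cannot go below p = 0.1, two-sided. Fold changes are on the log2(value + 1) scale and understate changes of low genes.

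Alternatives were edgeR 4.0.16 and DESeq2 1.42.0 on the recovered reads, TMM scaling, pseudocounts of 0.5 and 5, no filter, a filter at 50, the replicate number as a block, each library left out, the constitutive subunits only, the mean for the median, and removal of a length trend (spline with 5 degrees of freedom). Transcript lengths and positions came from GENCODE M21, and near-identical pseudogenes (at least 98% over 100 bases) from BLAST 2.17.0. Counting used reads without stated strand.

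Members, gene lists and tests were chosen with earlier results of these data known. Every member was named by role, with values per library for the 3 members of smallest p in each experiment, the active-site, inducible and filtered members, and members past the adjusted threshold. The highest and lowest members per kb were named, as were *Psme1*, *Psme2*, *Nfe2l1*, *Adrm1*, *Pomp* and *Ubb* from the lists of related genes.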

Additional observations from a re-analysis of the deposited data

How the results depend on the processing

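For the *Vangl1/2* experiment, 10 members were lower at an unadjusted p under 0.05, against 17 by edgeR, 17 by DESeq2 and 3 with the length trend removed. Leaving out 1 library at a time gave 0 to 34, and 0 to 33 at an adjusted p under 0.05, where only the fit without control replicate 2 gave any. With the length trend removed the median log2 fold change was -0.0731 for all members, -0.0736 for the core and -0.00886 for the core minus the cap. For the *Dermo1Cre* experiment, 2 members were lower, against 0 by DESeq2, 1 with the length trend removed and 0 to 4 when 1 library was left out. There the median was 0.0163 for all members, 0.0360 for the core and -0.00343 for the cap with the length trend removed, and when 1 library was left out the cap ranged from -0.0603 to -0.0242, the core from -0.0394 to 0.0128 and the core minus the cap from -0.00194 to 0.0370, so that the sign of the last 2 turned. Over all genes, limma called 1, 2 and 0 genes at an adjusted p under 0.05 in the *Vangl1/2*, *Dermo1Cre* and *Sox9Cre* experiments, edgeR 1, 2 and 0, and DESeq2 11, 101 and 9. The cause of these differences was not tested. In *Sox9Cre* lungs the counts of members at an unadjusted p under 0.05 (1 higher, 0 lower) and at an adjusted p under 0.05 (0) had the same value under every alternative that was run. There the median of the members ranged from 0.0228 to 0.0527 and the core minus the cap from -0.0312 to 0.0131 when 1 library was left out, so that the sign of the latter turned.

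Same-numbered control and mutant libraries correlated between -0.22 and 0.30 in their deviations, and differently numbered ones between -0.28 and 0.34. With 3 libraries per group, such correlations cannot decide whether the replicate numbers pair the libraries. With the replicate number as a block, 15 *Vangl1/2* members were lower at an unadjusted p under 0.05 (8.7% of all genes), 2 in the *Dermo1Cre* experiment (4.46%) and 0 in the *Sox9Cre* experiment (3.71%), where 1 was higher (1.62%), and 0 passed after adjustment. When 1 library was left out, *Psma8* ranged from -0.33 to 0.21 and *Psmb10* from -0.38 to 0.05 in the *Vangl1/2* experiment, and *Psma8* from -0.08 to 0.50 in the *Dermo1Cre* experiment. With 3 libraries per group, low-count members such as *Psmb9* rest on 3.97 to 15.9 normalized counts per library.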
